A study of Mus musculus with 35 samples.

Results

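The 10 genes described here are Dcn, Lum, Dpt, Pdgfra, Apod, Gsn, Scara5, Fbn1, Fbln1 and Ccdc80, a set of fibroblast identity, proteoglycan and matrix genes. They were taken by gene symbol from 22609 symbols counted in every one of 35 libraries, and all 10 symbols were found. The libraries came from hind paw skin of mice aged 8 to 16 weeks, dissociated and sorted into 3 populations for bulk mRNA sequencing. Paclitaxel (PTX), a taxane chemotherapy agent that stabilises microtubules, was injected intraperitoneally into males 2 times, at 2 mg/kg on consecutive days, and the paws were collected 6 days after the second dose. Fibroblasts were sorted as Col1a2-positive cells from Col1a2-cre-ER/tdTom mice, immune cells as CD45-positive cells from wild-type C57 mice, and keratinocytes as K5-positive cells from K5-cre-ER/tdTom mice. In each population there were 4 libraries of PTX males, 4 of vehicle females and 4 of vehicle males, except for 3 of vehicle male keratinocytes. No PTX females were included, so PTX was compared with vehicle in males. All fibroblasts carried the Col1a2-cre-ER and tdTom alleles and all keratinocytes the K5-cre-ER and tdTom alleles, controls included, while the immune cells came from mice with neither, so genetic background and sort cannot be told apart when populations are compared. The reporter marks cells in which the Col1a2 or K5 promoter drove the recombinase and their progeny, which limits it as a model of a whole cell type. Whether libraries of a group came from separate animals is not given, so p-values measure the spread between libraries, which may be technical.

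Dermal fibroblasts build and maintain the collagen network of the skin. Small leucine-rich proteoglycans such as decorin (Dcn) and lumican (Lum) sit on collagen fibrils and regulate their diameter and spacing, and decorin also binds TGF-β. Dermatopontin (Dpt) binds decorin and promotes fibril assembly, fibrillin-1 (Fbn1) forms the microfibrils on which elastic fibres are laid down, and fibulin-1 (Fbln1) is a glycoprotein of elastic fibres and basement membranes. Pdgfra, a receptor for platelet-derived growth factors, is a widely used surface marker of fibroblasts. Bulk libraries cannot tell fewer cells of a type apart from less RNA per cell.

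Gene counts summed to between 13359088 and 20809036 per fibroblast library, between 13847475 and 18979776 per immune library and between 6518070 and 12055718 per keratinocyte library, apart from vehicle female keratinocyte library 2 with 988712. Markers of each sort were highest in that sort. Summed CPM (counts scaled to a common library size over all libraries) of 12 pan-immune genes were 35152 to 48904 in immune libraries of PTX males, 27260 to 35024 in those of vehicle females and 18278 to 29868 in those of vehicle males, against at most 410.4 in any fibroblast library. A list of 12 basal keratinocyte genes summed to 3645 to 11406 CPM in keratinocyte libraries of PTX males, 16698 to 27393 CPM in those of vehicle females and 20571 to 26985 CPM in those of vehicle males. A list of 25 other fibroblast identity genes summed to 28053 to 69798 CPM over the fibroblast libraries. In keratinocyte libraries it summed to 11452 to 14861 CPM in PTX males, 394 to 1377 CPM in vehicle females and 513 to 847 CPM in vehicle males. In PTX males that range lay above the range of the basal keratinocyte list in the same libraries. The number of genes with more than 10 counts in immune libraries was 5956 to 8700 in PTX males, 10974 to 11036 in vehicle females and 11000 to 12813 in vehicle males.

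Promoters of 3 genes are shown because they belong to the most abundant of the 10 genes (Gsn), to a gene nearly absent from vehicle keratinocytes (Dpt) and to the gene whose level across sorts was least like the others (Fbln1). RefSeq windows of 300 bases (250 before and 50 after an annotated start; build GRCm38.p6) were at hand for 6 of the 10 genes, with 9 windows in all; each is read 5′ to 3′ on the gene's strand, with CpG dinucleotides in capitals.
Dpt, chr1:164796413-164796712, plus strand: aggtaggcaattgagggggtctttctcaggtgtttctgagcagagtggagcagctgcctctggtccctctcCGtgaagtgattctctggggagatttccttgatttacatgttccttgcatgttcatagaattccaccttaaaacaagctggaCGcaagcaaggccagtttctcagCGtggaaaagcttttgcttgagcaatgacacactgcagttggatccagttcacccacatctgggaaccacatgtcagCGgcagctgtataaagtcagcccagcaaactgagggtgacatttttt
Gsn, window 1, chr2:35256109-35256408, plus strand: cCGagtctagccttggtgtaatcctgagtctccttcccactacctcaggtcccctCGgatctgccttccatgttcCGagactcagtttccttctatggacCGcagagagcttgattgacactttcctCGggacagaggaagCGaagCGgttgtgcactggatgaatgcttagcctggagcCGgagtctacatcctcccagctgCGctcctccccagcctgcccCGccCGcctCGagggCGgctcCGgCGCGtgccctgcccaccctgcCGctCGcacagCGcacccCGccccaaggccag
Fbln1, window 2, chr15:85205758-85206057, plus strand: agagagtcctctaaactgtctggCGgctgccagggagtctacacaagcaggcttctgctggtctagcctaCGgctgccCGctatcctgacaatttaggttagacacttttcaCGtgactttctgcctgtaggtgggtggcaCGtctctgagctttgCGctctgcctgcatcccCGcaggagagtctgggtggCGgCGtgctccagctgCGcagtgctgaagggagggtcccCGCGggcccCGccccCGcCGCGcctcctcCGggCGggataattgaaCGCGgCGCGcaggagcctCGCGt
The Dpt window held 4 CpG, the Gsn window 20 and the Fbln1 window 24, beside a median of 7 over 32851 mouse windows, of which 26.5% held at least 20. For Gsn and Fbln1 the window shown is the one with the most CpG. The other Gsn windows held 2 and 16, and the other Fbln1 window held 12. The letters TATAAA, searched on both strands, were found in 1 of the 9 windows, that of Dpt, where they begin 12 bases after the annotated start; 13.6% of all windows held them. CCAAT was found in 2 of the 9 windows, both of Gsn, and in 37.4% of all windows. TGANTCA was found in none of the 9 and in 7.81% of all windows. Dcn and Lum, on chromosome 10, are neighbours with 0 protein-coding genes between them in the RefSeq annotation.

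The label of the set was first set against the data by comparing sorts within each group. A gene is called here when its adjusted p is under 0.05 in edgeR's quasi-likelihood test with Benjamini-Hochberg adjustment over all genes tested; all 10 passed the filter on low counts, which a gene can pass through 1 high group alone. All 10 genes were called higher in fibroblast than in immune libraries in PTX males (8.48% of all genes tested were), in vehicle females (4.29%) and in vehicle males (1.02%). All 10 were called higher in fibroblast than in keratinocyte libraries of vehicle females (8.34% of all genes) and of vehicle males (9.87% of all genes). In PTX males 6 of the 10 were called higher in fibroblast than in keratinocyte libraries (2.01% of all genes); the 4 others were Lum (log2 difference 2.37 ± 0.77, SE; adjusted p = 0.062), Dpt (1.75 ± 0.63; 0.0885), Fbn1 (1.88 ± 0.90; 0.194) and Fbln1 (1.71 ± 0.75; 0.154).
The median log2 difference of the 10 genes between fibroblast and immune libraries was 8.40 in PTX males, 8.33 in vehicle females and 3.78 in vehicle males, beside a median over all genes of 0.11 in PTX males and 0 in both vehicle groups. Between fibroblast and keratinocyte libraries it was 2.63 in PTX males, 7.67 in vehicle females and 12.47 in vehicle males (12.44 with Scara5 at its lower bound), beside a median over all genes of 0.079 in PTX males, 0.0022 in vehicle females and 0.46 in vehicle males. The vehicle female median of the 10 against keratinocytes was 10.15 without keratinocyte vehicle female 4, the library with 89.2 CPM of Fbn1, and 7.56 to 7.97 without any other one library.
Some of these calls depend on single libraries. Ccdc80 in PTX males, with an adjusted p of 0.0166 against keratinocytes, had 0.0518 without fibroblast PTX male 2 and 0.0532 without keratinocyte PTX male 4, and with library totals in place of composition scaling both Ccdc80 (0.066) and Dcn (0.0575) missed the threshold. Fbn1 in vehicle males against immune libraries also missed it with library totals (0.052). Fbn1 in vehicle males, with 0.0222 against immune libraries, had 0.059, 0.0631 and 0.0743 without immune vehicle male 1, 2 and 3. Fbln1 in vehicle females, with 0.0449 against keratinocytes, had between 0.0618 and 0.105 without any one library except fibroblast vehicle female 4. It was also lost with RLE scaling (0.0518), without the filter (0.0538), with a replicate block (0.0681) and with library totals (0.112).

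In fibroblasts the 10 genes together took 9.42% to 11.6% of all gene counts in PTX males, 11.0% to 13.2% in vehicle females and 11.4% to 13.6% in vehicle males. Gsn alone took 5.13% to 5.65% in PTX males, 6.73% to 8.90% in vehicle females and 6.86% to 8.11% in vehicle males. Gelsolin, which Gsn encodes, severs and caps actin filaments and also has a secreted form. Per kilobase of annotated exons, mean levels in vehicle males ran from Gsn (24648 ± 4286 CPM per kb, SD, n = 4) through Dcn (4770 ± 1089), Apod (4251 ± 1415), Ccdc80 (1870 ± 1397), Lum (765 ± 237), Dpt (534 ± 64), Scara5 (334 ± 129) and Fbln1 (114 ± 54.2) to Fbn1 (95.3 ± 6.56) and Pdgfra (92.5 ± 15.4). Of neighbours in that order, Dcn and Apod, Ccdc80 and Lum, Lum and Dpt, Fbln1 and Fbn1, and Fbn1 and Pdgfra differed by less than the larger of their 2 SDs. In PTX males Gsn was again highest (18754 ± 3367 CPM per kb) and Pdgfra lowest (59.5 ± 15.9), and the mean of Apod (6349 ± 3449) stood above that of Dcn (4687 ± 1502) with overlapping spreads. Between libraries of one group the spread was smallest for Gsn (residual SD 0.25 on the log2 scale over 12 libraries) and largest for Ccdc80 (0.68).

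None of the 10 genes was called between PTX males and vehicle males in fibroblasts by edgeR, where 0.0184% of all genes tested were called. Of the 10, 9 had a fold change below 0, with a median log2 fold change of -0.35 beside 0.076 over all genes, and 4 of the 10 were lower at an unadjusted p under 0.05 (5.28% of all genes were). DESeq2 and limma with voom weights also called 0 of the 10. Under RLE scaling the median over all genes moved to 0.23 and that of the 10 to -0.11, so both shifted up.

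**Figure D1:**
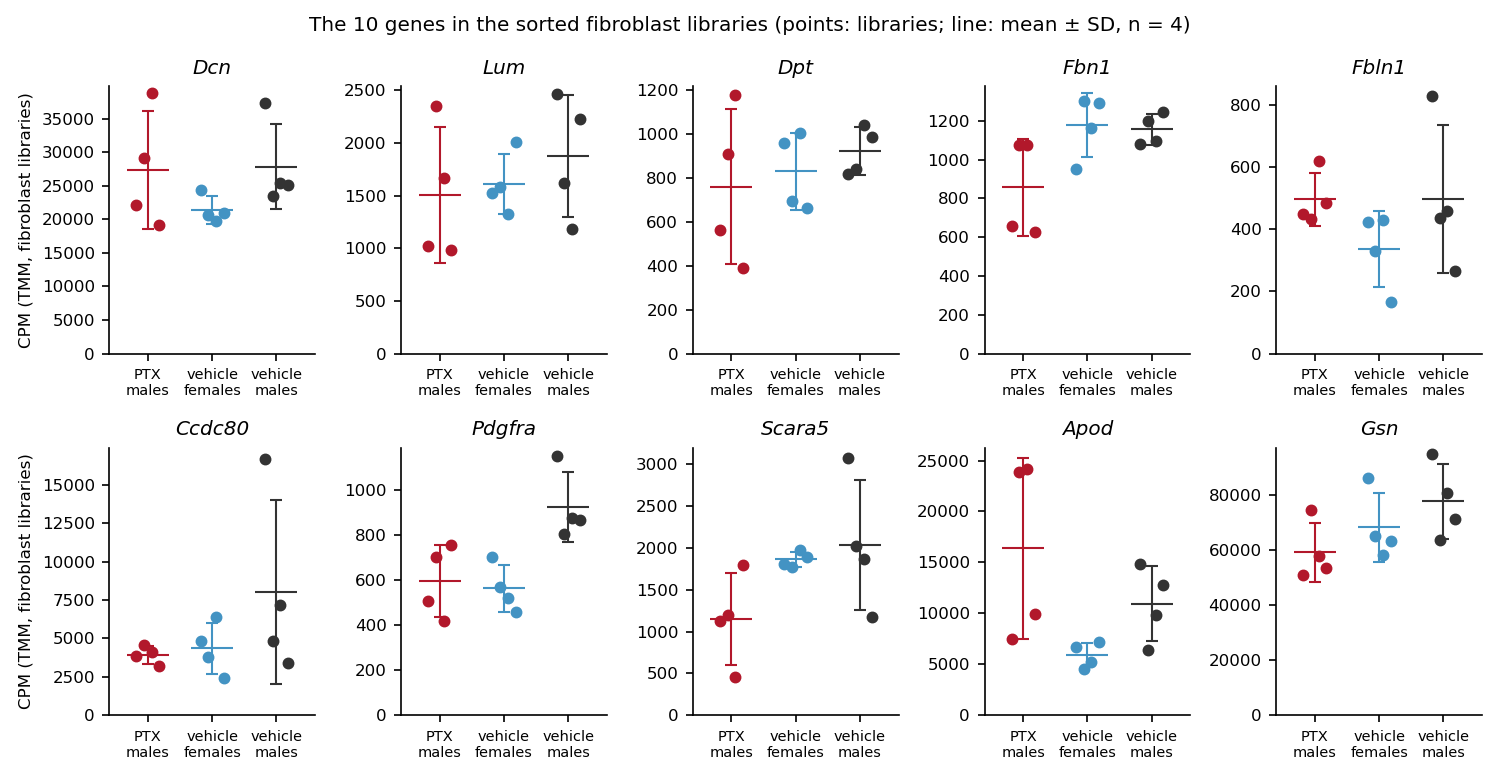
Level of each of the 10 genes in the sorted fibroblast libraries (CPM with TMM scaling over the fibroblast libraries, linear axis from 0); each point is 1 library, and the line with bars is the mean ± SD of 4. In Pdgfra and Fbn1 the 4 PTX male points lie below all 4 vehicle male points, while in Dcn and Apod the groups overlap widely.

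Among the proteoglycans and their partner, Dcn had 22163, 29226, 38892 and 19162 CPM in PTX males, 24396, 20589, 19738 and 21013 CPM in vehicle females and 37306, 23560.0, 25448 and 25078 CPM in vehicle males (TMM scaling within fibroblasts, replicates 1 to 4). The highest and the lowest PTX libraries bracket all vehicle males, and the log2 fold change in PTX males was -0.025 ± 0.19 (SE; adjusted p = 0.997). Lum had 1019, 2354, 1667 and 984 CPM in PTX males, 1524, 1585, 1322 and 2009 CPM in vehicle females and 2461, 1619.7, 1184 and 2229 CPM in vehicle males, also with overlapping groups (-0.32 ± 0.30; 0.957). Dpt had 560.4, 906, 1178 and 389.7 CPM in PTX males, 956, 695, 1001 and 662 CPM in vehicle females and 815, 841, 1042 and 986 CPM in vehicle males. Its PTX libraries spread more widely than the vehicle libraries on both sides, and the fold change was -0.28 ± 0.32 (0.973). For these 3 genes, PTX libraries 2 and 3 were the highest of the group and 1 and 4 the lowest with TMM scaling. As a percentage of gene counts, Dcn was 2.45% in PTX library 1 and 2.22% in PTX library 2.

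Among the microfibril and matrix genes, Fbn1 had 657, 1074, 1075 and 625 CPM in PTX males, 949, 1303, 1165 and 1294 CPM in vehicle females and 1082, 1199.6, 1097 and 1246 CPM in vehicle males. All 4 PTX libraries were below all 4 vehicle male libraries, libraries 2 and 3 only just, and the log2 fold change was -0.43 ± 0.25 (adjusted p = 0.777). Fbln1 had 448, 433, 618 and 483 CPM in PTX males, 422, 331, 430.0 and 167 CPM in vehicle females and 827, 437, 459.8 and 264 CPM in vehicle males. The PTX values lay inside the range of the vehicle males (-0.0047 ± 0.38; 1). Ccdc80, a secreted protein found in the extracellular matrix, had 3868, 4581, 4096 and 3186 CPM in PTX males, 4829, 3785, 6396 and 2441 CPM in vehicle females and 16722, 4822, 7153 and 3412 CPM in vehicle males. Vehicle male 1 stood far above the other libraries and vehicle male 4 fell among the PTX libraries. The log2 fold change of -1.03 ± 0.37 was the most negative of the 10 (adjusted p = 0.468).

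The 2 surface receptors were both lower in mean. Pdgfra had 509, 703, 418 and 755 CPM in PTX males, 704, 570.1, 519 and 460.4 CPM in vehicle females and 1154, 808, 878 and 868 CPM in vehicle males. Every PTX library and every vehicle female library was below every vehicle male library, with a log2 fold change of -0.64 ± 0.28 in PTX males (adjusted p = 0.531). Against the vehicle females the PTX value turned to 0.081. Scara5, a scavenger receptor that takes up ferritin, had 1129.9, 1202, 455 and 1801 CPM in PTX males, 1813, 1774, 1979 and 1888 CPM in vehicle females and 3072, 2029, 1866 and 1176 CPM in vehicle males. PTX library 3 was the lowest of all 12 and vehicle male 1 the highest, and the groups overlapped (-0.83 ± 0.34; 0.492). Non-overlap to the lower side, seen for Pdgfra and Fbn1, was found for 1.81% of all genes tested.

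Gsn had 50919, 74574, 57796 and 53537 CPM in PTX males, 86394, 65202, 58248 and 63426 CPM in vehicle females and 95123, 63761, 81023 and 71341 CPM in vehicle males. With TMM scaling PTX library 2 lay among the vehicle males and the other 3 below them. The log2 fold change was -0.39 ± 0.15 (adjusted p = 0.475). As a percentage of gene counts, all PTX libraries (5.13% to 5.65%) lay below all vehicle males (6.86% to 8.11%). PTX library 2 had the fewest genes with more than 10 counts of all fibroblast libraries (5360). Apod, which encodes the lipid-binding lipocalin apolipoprotein D, was the 1 gene of the 10 with a fold change above 0. It had 7484, 23833, 24185 and 9948 CPM in PTX males, 6657, 4563, 5184 and 7129 CPM in vehicle females and 14820.5, 6435, 9816 and 12750.0 CPM in vehicle males. PTX libraries 2 and 3 were the highest of all 12, while 1 and 4 lay within the range of the vehicle males (0.58 ± 0.32; 0.742). Summed CPM of 11 pericyte and smooth muscle genes in the fibroblast libraries was 411 to 4615 in PTX males, 541 to 1250 in vehicle females and 136 to 706 in vehicle males, and edgeR called 0 of the 10 members of that list it tested (2 were higher at an unadjusted p under 0.05). Their part in the values above was not tested.

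Between vehicle females and vehicle males none of the 10 genes was called in fibroblasts by edgeR or DESeq2 (0.0184% of all genes were called by edgeR). Of the 10, 9 had a fold change below 0 with a median of -0.30 beside -0.11 over all genes. In vehicle females 3 of the 10 (against 1.02% of all genes) were lower at an unadjusted p under 0.05: Pdgfra (-0.72 ± 0.28), Apod (-0.90 ± 0.32) and Ccdc80 (-0.88 ± 0.37), each with an adjusted p of 1. This comparison and that of PTX males share the vehicle male libraries.

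Other genes of the same matrix were read from lists beside the 10. Of 16 other small leucine-rich and matrix proteoglycans tested in fibroblasts, edgeR called 0 in PTX males (3 lower and 0 higher at an unadjusted p under 0.05; median log2 fold change -0.22). Fmod, which encodes the collagen-binding proteoglycan fibromodulin, averaged 2346 ± 1305 CPM in PTX males and 1975 ± 2117 CPM in vehicle males (SD, n = 4 each), and Bgn (biglycan) averaged 1421 ± 254 CPM in PTX males and 1998 ± 731 CPM in vehicle males. Of 20 elastic fibre and microfibril genes, 0 were called (2 lower and 1 higher unadjusted; median -0.31); Fbln2 averaged 1410 ± 553 CPM in PTX males and 2903 ± 712 CPM in vehicle males (-1.04 ± 0.29; adjusted p = 0.468). Of 24 other fibroblast identity genes, 1 was called, the fibrillar collagen gene Col3a1, which fell (-1.62 ± 0.26; adjusted p = 0.0359), and the median was -0.18. At an unadjusted p under 0.05, 5 of them were lower and 2 higher. Summed CPM of the list, scaled over all libraries, was 28053 to 39241 in PTX males, 52407 to 58068 in vehicle females and 47631 to 69798 in vehicle males. The Col3a1 call was lost without vehicle male 1 (adjusted p = 0.184), 2 (0.114) or 3 (0.101). It was lost without PTX male 2 (0.228), 3 (0.0895) or 4 (0.223). It was also lost with RLE scaling (0.184), library totals (0.161), only the 2 groups in the fit (0.0977), DESeq2 (0.0621) and limma with voom weights (0.808). Over all its alternatives its adjusted p ran from 0.00524 to 0.808.

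In the immune sort the 10 genes were lower in PTX males than in vehicle males, and 9 of the 10 were called, where 4.56% of all genes tested were called lower. The median log2 fold change was -4.42 beside 0.096 over all genes. With limma and voom quality weights 1 of the 10, Gsn, was called. All 10 had every PTX library below every vehicle male library, which held for 10.8% of all genes. Together the 10 genes took 0.0543% to 0.181% of gene counts in PTX males, 0.0628% to 0.118% in vehicle females and 0.893% to 1.78% in vehicle males, so the vehicle males were the group that stood apart and the vehicle females lay with the PTX males. Against vehicle females in place of vehicle males no gene of the 10 was called, and the median fold change in PTX males was 0.62.

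**Figure D2:**
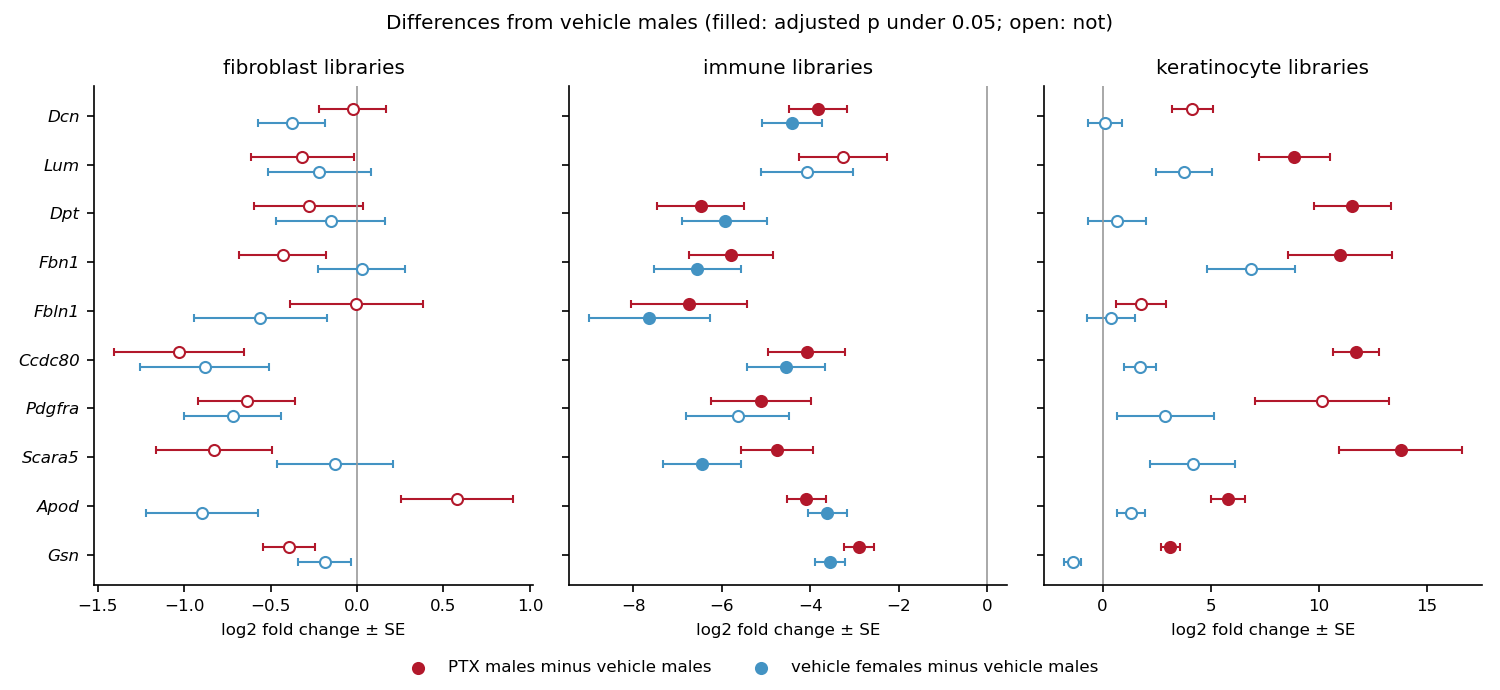
Log2 fold change (± SE) of each gene from vehicle males in fibroblast, immune and keratinocyte libraries; red is PTX males minus vehicle males, blue is vehicle females minus vehicle males, filled points have an adjusted p under 0.05. In immune libraries both colours lie far left of 0, between -2.90 and -7.63; in keratinocyte libraries the red points lie right of 0, and that of Scara5 depends on the prior count since vehicle males had none; in fibroblast libraries all points lie within about 1 of 0 and none is filled.

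Dcn had 85.1, 137, 440.3 and 43.8 CPM in immune libraries of PTX males, 52.7, 208, 120.5 and 86.4 CPM in those of vehicle females and 1687, 2065, 2379 and 3871 CPM in those of vehicle males (TMM scaling within immune libraries). The lowest vehicle male stood above the highest PTX library, PTX male 3, and Dcn fell by 3.82 on the log2 scale in PTX males (SE 0.66; adjusted p = 0.0079). Dpt had 3.09, 0.653, 1.62 and 1.79 CPM in PTX males, 1.30, 0.748, 1.09 and 7.22 CPM in vehicle females and 122, 179.6, 113 and 222 CPM in vehicle males, and fell (-6.47 ± 0.98; 0.00588). Lum had 5.53, 2.48, 34.3 and 2.90 CPM in PTX males, 1.93, 11.3, 8.49 and 3.81 CPM in vehicle females and 101, 117, 86.6 and 126 CPM in vehicle males. PTX male 3 was again the highest of its group, and Lum was not called (-3.25 ± 0.997; adjusted p = 0.0736); without that library it was (-4.89; 0.0105), and adjusted p over its alternatives ran from 0.00144 to 0.853.

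Of the matrix genes, Fbln1 had 0.813, 0.653, 0.464 and 0.511 CPM in immune libraries of PTX males, 0.312, 0, 0.303 and 0.672 CPM in those of vehicle females and 92.7, 80.3, 48.4 and 40.8 CPM in those of vehicle males. It was near 0 in all libraries but those of vehicle males and fell the furthest of the 10 in PTX males (-6.73 ± 1.31; 0.0133). Fbn1 had 3.49, 0.587, 3.56 and 1.45 CPM in PTX males, 0.573, 0.873, 2.97 and 0.951 CPM in vehicle females and 133, 117, 75.3 and 178 CPM in vehicle males and fell (-5.79 ± 0.95; 0.00685). Ccdc80 had 18.4, 6.72, 11.6 and 155 CPM in PTX males, 22.1, 53.9, 32.3 and 30.6 CPM in vehicle females and 571, 839, 585 and 1259 CPM in vehicle males. PTX male 4 was well above the other PTX libraries and still below every vehicle male (-4.08 ± 0.86; 0.0192). Without vehicle male 4 its adjusted p was 0.0539 (alternatives 1.3e-05 to 0.925).

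Pdgfra had 1.95, 0.848, 1.31 and 0.852 CPM in immune libraries of PTX males, 0.989, 0.811, 0.909 and 0.728 CPM in those of vehicle females and 14.3, 35.1, 35.1 and 88.7 CPM in those of vehicle males. It fell in PTX males (-5.12 ± 1.13; adjusted p = 0.0225), and the adjusted p was 0.0569, 0.056 and 0.0764 without vehicle male 2, 3 and 4 (alternatives 1.04e-11 to 0.939). Scara5 had 3.66, 1.63, 4.49 and 15.3 CPM in PTX males, 1.87, 1.12, 2.61 and 2.13 CPM in vehicle females and 99.5, 111, 222 and 247 CPM in vehicle males and fell (-4.76 ± 0.81; 0.00756). Apod had 69.8, 27.0, 20.5 and 38.0 CPM in PTX males, 52.2, 59.1, 47.2 and 57.5 CPM in vehicle females and 335, 571, 674 and 1063 CPM in vehicle males and fell (-4.09 ± 0.45; 0.000748). Gsn, expressed in many cell types, kept the highest level of the 10 in the immune libraries. It had 815, 398, 1422 and 1238 CPM in PTX males, 487, 731, 625 and 629 CPM in vehicle females and 5235, 7224, 7792 and 8702 CPM in vehicle males and fell the least (-2.90 ± 0.33; 0.000986).

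The vehicle females differed from the vehicle males in the same libraries. In vehicle females 8 of the 10 genes were called lower in the immune sort (0.289% of all genes were), with a median log2 difference of -5.10 beside 0.0035 over all genes. Gsn (-3.55 ± 0.34; adjusted p = 0.000339), Apod (-3.61 ± 0.44; 0.00186) and Scara5 (-6.45 ± 0.88; 0.0054) were called lower whichever of the 8 libraries was left out. Lum (-4.08 ± 1.04; 0.137) and Pdgfra (-5.64 ± 1.16; 0.064) were not called by edgeR. DESeq2 called both (adjusted p = 9.1e-05 for Lum and 8.38e-14 for Pdgfra). The other 5 calls depend on single libraries. Ccdc80 (adjusted p = 0.0483) was lost without any one of the 8, at 0.099 to 0.232, and Fbln1 (0.031) without any one except vehicle female 2, at 0.0709 to 0.164. Ccdc80 was also lost with RLE scaling (0.057). Dpt (0.0153) was lost without vehicle female 1 (0.0889) or 3 (0.0863) and without vehicle male 2 (0.0749), 3 (0.0545) or 4 (0.0758). Dcn (0.0126) was lost without vehicle female 1 (0.0563), 3 (0.07) or 4 (0.0693), and Fbn1 (0.0116) without vehicle female 1 (0.0563) or 4 (0.0693) or vehicle male 4 (0.0538).

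Endothelial, pericyte and basal keratinocyte markers were also lower in median summed CPM in immune libraries of PTX males than of vehicle males. Of all genes tested, 4.56% were called lower in this comparison. Summed CPM of 11 endothelial genes was 0.430 to 66.7 in PTX males, with 2 genes at 0 in every library, 79.0 to 169 in vehicle females and 211 to 928 in vehicle males, and 7 of the 11 were called lower in PTX males. For 11 pericyte and smooth muscle genes it was 3.20 to 42.9 in PTX males, 194 to 775 in vehicle females and 409 to 2414 in vehicle males (5 of 11 called lower), and for 12 basal keratinocyte genes 27.0 to 119 in PTX males, 26.8 to 115 in vehicle females and 98.4 to 2749 in vehicle males (3 of 10 tested called lower). Between vehicle females and vehicle males edgeR called 0 of 11 endothelial, 0 of 11 pericyte and smooth muscle and 0 of 10 basal keratinocyte genes. Their median log2 differences were -1.67, -1 and -3.50. Of the 10 genes, 8 were called lower there (median -5.10), beside 0.289% of all genes. Of 22 other fibroblast identity genes tested, 6 were called lower there too (16 at an unadjusted p under 0.05; median -4.10). So were 1 of 15 other proteoglycan genes (10 unadjusted; median -3.75) and 1 of 16 elastic fibre genes (8 unadjusted; median -2.56). The part of the endothelial, pericyte and basal keratinocyte markers in the lower levels of the 10 genes was not tested. Of the other matrix genes, 6 of 15 proteoglycan genes tested fell in PTX males (median -4.61), among them Aspn (-6.11 ± 0.95; adjusted p = 0.00628), 6 of 16 elastic fibre genes fell (median -3.47), among them Fbln2 (-5.52 ± 0.89; 0.00662), and 8 of 22 other fibroblast identity genes fell (median -2.72), among them Cd248 (-5.63 ± 0.91; 0.00662). With vehicle females as control none of Aspn (adjusted p = 0.0912), Fbln2 (0.336) and Cd248 (0.944) was called, and the fold change of Cd248 was 0.38. With voom weights all of them missed the threshold (0.216 for Aspn, 0.163 for Fbln2 and for Cd248). With both vehicle groups as control Fbln2 (0.0545) and Cd248 (0.103) missed it.

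**Figure D3:**
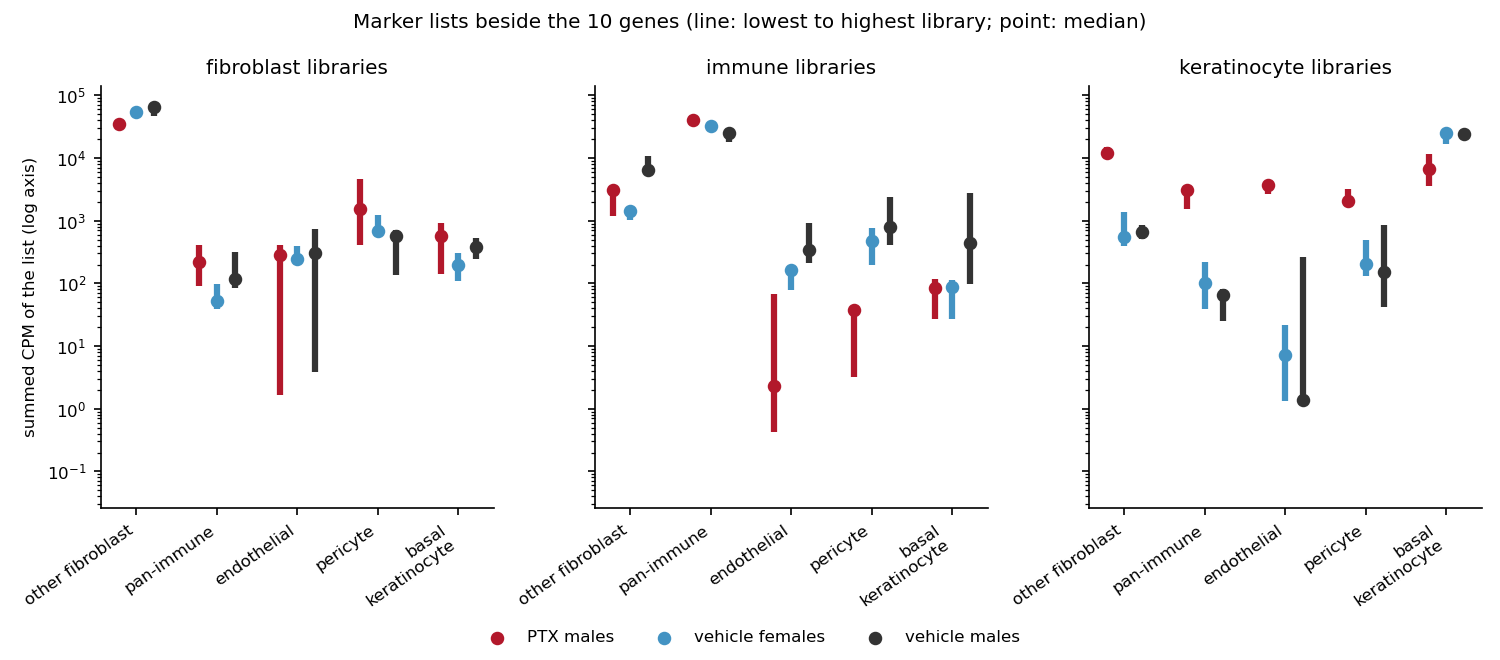
Summed CPM (log axis, scaled over all libraries) of 5 marker lists in fibroblast, immune and keratinocyte libraries; the line runs from the lowest to the highest library of a group and the point is the median, red for PTX males, blue for vehicle females, dark grey for vehicle males. In immune libraries the endothelial list is at 0.430 to 66.7 in PTX males and 211 to 928 in vehicle males, and in keratinocyte libraries it is at 2675 to 4116 in PTX males and 1.13 to 262 in vehicle males.

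In the keratinocyte sort the direction was the opposite. Of the 10 genes, 7 were called higher in PTX males than in vehicle males (1.15% of all genes tested were), and 9 of the 10 had every PTX library above every vehicle male library (9.15% of all genes). The median log2 fold change was 9.51 (9.02 with Scara5 at its lower bound) beside 0.070 over all genes. With limma and voom quality weights 4 were called: Dpt, Pdgfra, Scara5 and Fbn1. The calls of Gsn (adjusted p = 0.601), Apod (0.428), Lum (0.065) and Ccdc80 (0.0507) were lost under those weights. Over the alternatives run, the adjusted p of Gsn was 4.25e-06 to 0.601, and that of Apod 7.35e-10 to 0.428. That of Lum was 3.28e-12 to 0.065 and that of Ccdc80 5.61e-31 to 0.0507. The 10 genes together took 1.70% to 2.33% of gene counts in PTX males, 0.0833% to 0.143% in vehicle females and 0.104% to 0.181% in vehicle males. The vehicle male libraries together held 0 to 8 counts of Scara5, Pdgfra, Dpt, Fbn1 and Ccdc80, so these fold changes rest on a few counts. Such genes could pass the filter on low counts of this fit through PTX males alone. For them a rise and non-overlap were therefore largely fixed in advance, and the shares over all genes are no like background. They held 28 counts of Lum and between 589 and 27595 of Apod, Fbln1, Dcn and Gsn.

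Ccdc80 had 831, 1261, 1591 and 791 CPM in keratinocyte libraries of PTX males, 2.23, 1.56, 0.433 and 0.399 CPM in those of vehicle females and 0.0876, 0.542 and 0.371 CPM in those of vehicle males (TMM scaling within keratinocyte libraries). The vehicle groups were both near 0, and Ccdc80 rose in PTX males (11.72 ± 1.06; adjusted p = 3.63e-06). Fbn1 had 411, 461, 379 and 319 CPM in PTX males, 0.279, 0.782, 0.108 and 89.2 CPM in vehicle females and 0.175, 0.181 and 0.186 CPM in vehicle males. Vehicle female 4 stood apart from the other vehicle libraries, and Fbn1 rose in PTX males (10.97 ± 2.41; 0.0226), a call lost without any one of the 7 libraries (adjusted p 0.0534 to 0.0867). The call was also lost with vehicle females as control (4.11; adjusted p = 0.214) and with both vehicle groups as control (4.94; 0.122). Fbln1 had 248, 353, 415 and 22.8 CPM in PTX males, 91.6, 100.1, 78.7 and 131 CPM in vehicle females and 41.7, 177 and 9.75 CPM in vehicle males. It was the 1 gene of the 10 whose groups overlapped, with PTX male 4 below 2 of the 3 vehicle males, and it was not called (1.77 ± 1.16; 0.597).

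Dcn had 8145, 6979, 5899 and 7568 CPM in keratinocyte libraries of PTX males, 1252, 235, 182 and 66.6 CPM in those of vehicle females and 106, 566 and 529 CPM in those of vehicle males. Every PTX library was above every vehicle library, and the adjusted p was 0.057 (4.16 ± 0.95), which was 0.0457 with RLE scaling, 0.000321 with only the 2 groups in the fit, and 7.95e-05 to 0.944 over all its alternatives. Lum had 609, 817, 283 and 233 CPM in PTX males, 2.37, 3.13, 1.41 and 49.5 CPM in vehicle females and 0.789, 1.08 and 1.21 CPM in vehicle males and rose (8.87 ± 1.63; 0.00578; 0.0525 without PTX male 2). Dpt had 492, 540.0, 226 and 281 CPM in PTX males, 0.139, 0.782, 0.108 and 0.0998 CPM in vehicle females and 0.175, 0.181 and 0 CPM in vehicle males. It rose (adjusted p = 0.00136), and its 14044 counts in PTX males against 3 in vehicle males give a ratio of 3460 (95% interval 1180 to 16800, counting error only).

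Pdgfra had 103, 74.7, 173 and 16.1 CPM in keratinocyte libraries of PTX males, 0.139, 1.56, 0.650 and 0.200 CPM in those of vehicle females and 0, 0 and 0.186 CPM in those of vehicle males. PTX male 4 was the lowest of its group, and Pdgfra was not called (adjusted p = 0.154) although its 3906 counts in PTX males stood against 2 in vehicle males (ratio 1440, interval 399 to 11900). It was called with DESeq2 (adjusted p = 1.44e-06), with limma and voom weights (0.00774) and with both vehicle groups as control (0.0231). Its adjusted p over all alternatives was 1.44e-06 to 0.366. Scara5 had 31.0, 387, 117 and 301 CPM in PTX males, 0.696, 0, 0.108 and 0.0998 CPM in vehicle females and 0 in all 3 vehicle male libraries. It was at least 579-fold higher in PTX males, taking a floor of 3 counts per vehicle male library, and was called (adjusted p = 0.0175). That call was lost without PTX male 2 (0.0976) or 4 (0.0657) and without vehicle male 1 (0.0761) or 3 (0.0773). Apod had 1068, 1519, 607 and 1843 CPM in PTX males, 42.3, 137, 17.4 and 29.5 CPM in vehicle females and 15.9, 29.97 and 22.5 CPM in vehicle males and rose (5.79 ± 0.79; 0.000521). Gsn had 7277, 14274, 6723 and 9037 CPM in PTX males, 119, 258, 542 and 691 CPM in vehicle females and 831, 1352 and 986 CPM in vehicle males and rose (3.14 ± 0.46; 0.000771).

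Here too other lists moved, where 1.15% of all genes tested were called higher in PTX males. Summed CPM of 11 endothelial genes in keratinocyte libraries was 2675 to 4116 in PTX males, 1.32 to 21.8 in vehicle females and 1.13 to 262 in vehicle males (9 of 11 called higher in PTX males). For 12 pan-immune genes it was 1512 to 3522 in PTX males, 38.7 to 221 in vehicle females and 25.0 to 81.9 in vehicle males (5 of 11 tested called higher), and for 11 pericyte and smooth muscle genes 1770 to 3190 in PTX males, 133 to 500 in vehicle females and 41.9 to 852 in vehicle males (2 of 10 called higher). Of all 10939 genes tested, edgeR called 33 lower in PTX males. The basal keratinocyte list was lower in PTX males by the values given above. Of its 12 genes, 5 were called lower, among them Krt14 (-1.93 ± 0.32, adjusted p = 0.00314). Their part in the higher levels of the 10 genes was not tested. Of the other matrix genes, 2 of 14 proteoglycan genes rose (Fmod, 9.59 ± 1.40, adjusted p = 0.000764, and Prg4, 11.09 ± 2.29, 0.0143), 1 of 19 elastic fibre genes rose (Fbln2, 9.59 ± 1.92, 0.0111), and 9 of 19 other fibroblast identity genes rose, among them Serpinf1 (11.01 ± 1.80, 0.00223). The call of Prg4 was lost without vehicle male 1 (0.0614), 2 (0.0758) or 3 (0.0962). It was also lost without PTX male 2 (0.253) and with vehicle females as control (0.0839). That of Fbln2 was lost without vehicle male 1 (0.0582) or 3 (0.0545) and without PTX male 4 (0.0697). With voom weights both Prg4 (0.223) and Fmod (0.38) missed the threshold. Krt14 missed it without the filter (0.0643). Between vehicle females and vehicle males edgeR called 0 of the 10 genes in keratinocytes (0.00914% of all genes were called), 5 had an unadjusted p under 0.05 (8.02% of all genes did), and DESeq2 called 1, Lum (adjusted p = 0.03).

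Set against the fibroblast level of the same group, the share found in the other sorts followed these differences (TMM scaling over all 35 libraries). In the immune sort the median share over the 10 genes was 0.317% in PTX males, 0.311% in vehicle females and 7.27% in vehicle males. The lowest and highest shares were those of Fbln1 (0.0944% ± 0.0245, SD, n = 4) and Gsn (1.27% ± 0.595) in PTX males, Fbln1 (0.0841% ± 0.0718) and Apod (0.805% ± 0.0762) in vehicle females, and Pdgfra (3.70% ± 2.69) and Dpt (13.8% ± 4.32) in vehicle males. Dcn stood at 0.492% ± 0.500 in PTX males, 0.477% ± 0.266 in vehicle females and 7.13% ± 2.67 in vehicle males. In vehicle males all 10 shares lay within a 3.71-fold range. Col1a2, the gene whose promoter drove the fibroblast reporter, had a share of 3.20% in PTX males, 0.196% in vehicle females and 7.17% in vehicle males.

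In the keratinocyte sort the median share was 16.1% in PTX males, 0.495% in vehicle females and 0.0204% in vehicle males. In PTX males shares ran from Apod (4.58% ± 2.11) through Gsn (9.52% ± 3.97) and Dcn (15.3% ± 2.14) to Fbn1 (27.1% ± 4.65), Dpt (29.8% ± 12.5) and Fbln1 (30.6% ± 20.4). The Col1a2 share was 39.8%. Shares also depend on the fibroblast level, which differed between groups. Fibroblast Col1a2 averaged 4952 CPM in PTX males, 9402 CPM in vehicle females and 11194 CPM in vehicle males. Fibroblast Apod averaged 21597 CPM in PTX males, 6819 CPM in vehicle females and 13838.5 CPM in vehicle males. In the vehicle groups Fbln1 had the highest share, 20.8% ± 4.35 in vehicle females and 8.52% ± 9.71 in vehicle males (n = 3), while the next was Dcn at 1.51% ± 2.00 in vehicle females and 0.835% ± 0.536 in vehicle males. Scara5 had 0 counts in vehicle male keratinocytes and was at least 9810-fold higher in fibroblasts of the same group (floor of 3 counts per library). Across the 10 genes, the group means on the log2 scale in immune libraries correlated with those of the fibroblasts of the same group with r = 0.965 in PTX males, 0.972 in vehicle females and 0.972 in vehicle males. In keratinocyte libraries r was 0.941 in PTX males, 0.602 in vehicle females and 0.691 in vehicle males. These are correlations across 10 genes that share libraries, given as a description.

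**Figure D4:**
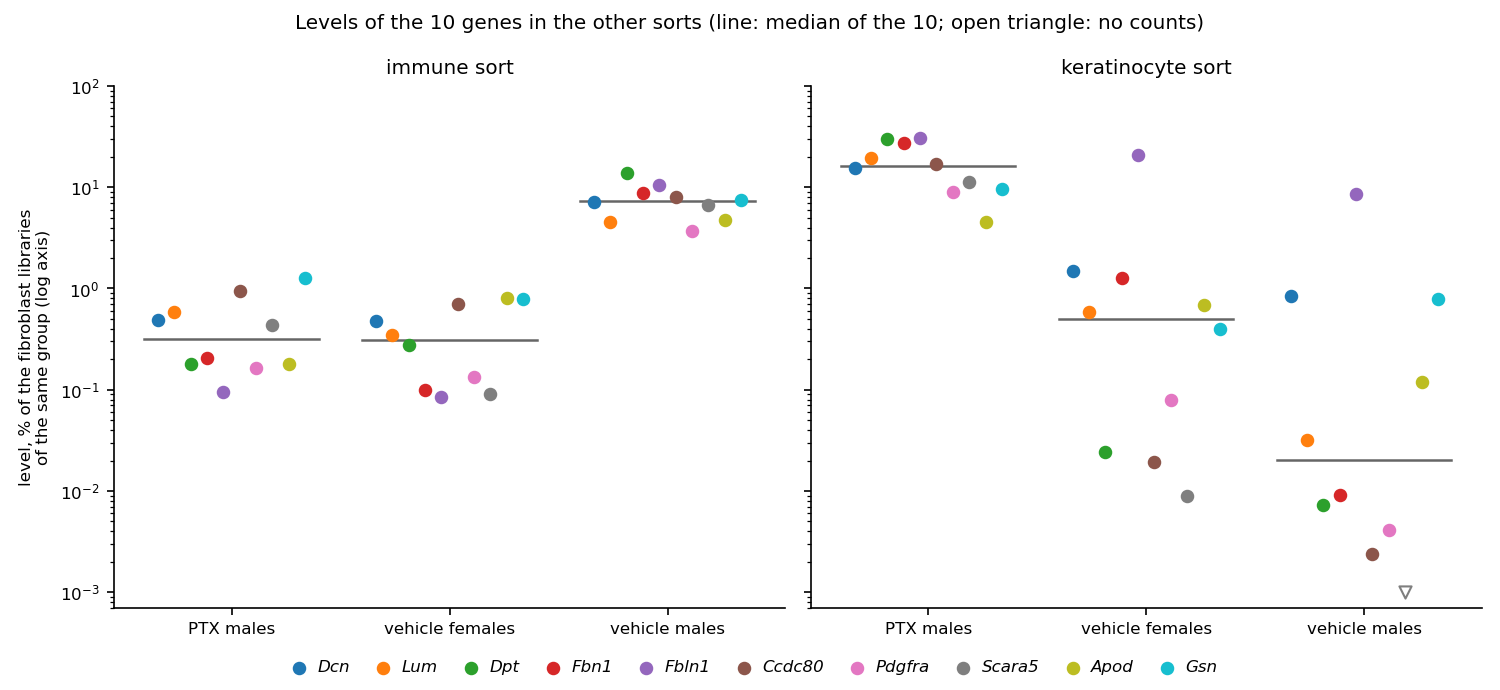
Level of each gene in the immune and the keratinocyte sort as a percentage of its mean level in fibroblasts of the same group (log axis); each colour is a gene, the line is the median of the 10, and the open triangle marks Scara5 with no counts. The median in the immune sort is 0.317% in PTX males and 7.27% in vehicle males, and in the keratinocyte sort 16.1% in PTX males and 0.0204% in vehicle males.

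The difference between populations in the PTX response was tested itself. The fold change in immune libraries minus that in fibroblasts was called for 9 of the 10 genes, all below 0 (3.15% of all genes were called below 0), from -2.36 ± 0.37 for Gsn (adjusted p = 0.00015) to -6.57 ± 0.85 for Fbln1 (1.6e-05). The exception was Ccdc80 (-2.79 ± 0.90; 0.0784), which was called without fibroblast vehicle male 1 (0.0205) and without immune PTX male 2 (0.0478) or 4 (1.7e-05). The call of Lum (-2.88 ± 0.81; 0.0432) was lost in 10 of 16 fits without 1 library, at 0.0537 to 0.0762: without fibroblast vehicle male 2, 3 or 4, fibroblast PTX male 2 or 3, immune vehicle male 2 or 4, or immune PTX male 1, 2 or 4. The fold change in keratinocytes minus that in fibroblasts was called for 9 of the 10, all above 0 (3% of all genes were called above 0), from 3.45 ± 0.49 for Gsn (2.21e-05) to 12.67 ± 0.96 for Ccdc80 (1.58e-10) among genes with counts in every group. Fbln1 was not called (1.71 ± 1.04; 0.418).

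**Figure D5:**
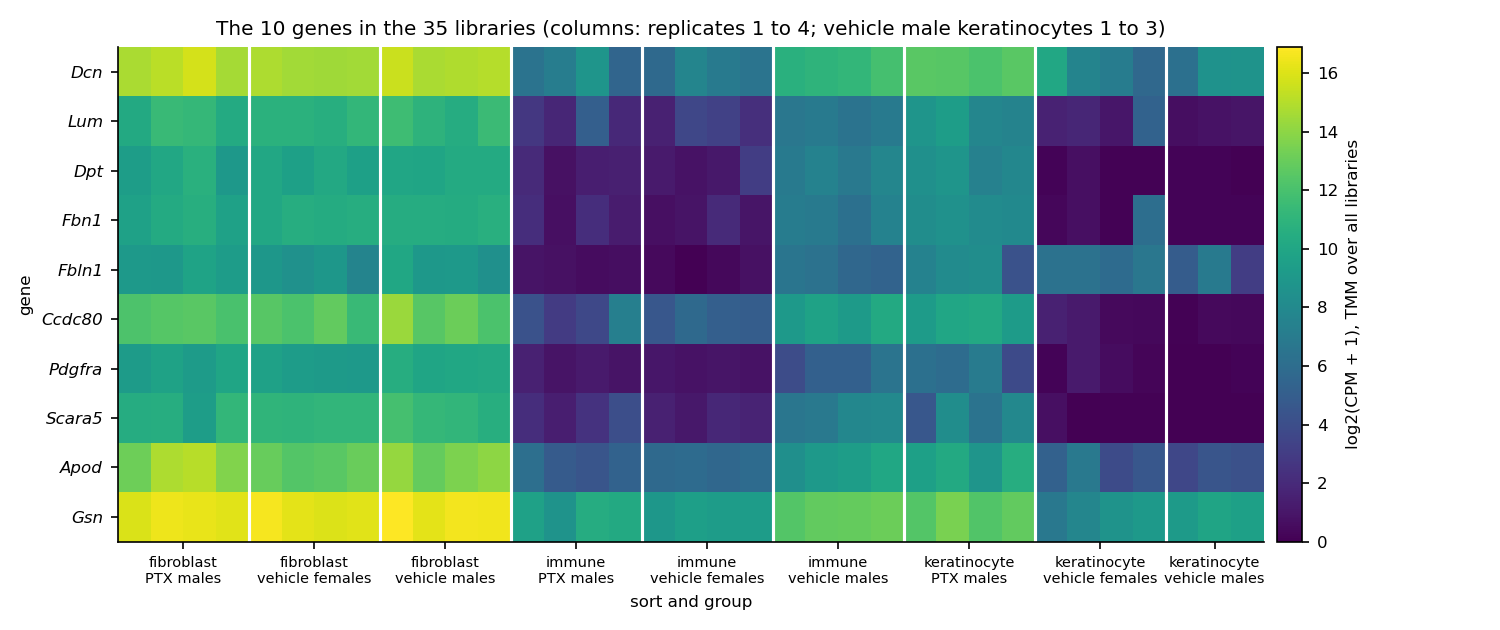
Level of the 10 genes in every library as log2(CPM + 1), scaled over all 35 libraries; columns are libraries ordered by sort and group, rows are genes, and lighter colours are higher. The fibroblast libraries are high throughout, and outside them the immune libraries of vehicle males and the keratinocyte libraries of PTX males are the brightest blocks.

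Over the 9 group means of log2(CPM + 1), each gene was set beside the mean of the other 9 genes. Fbln1 was the least alike (r = 0.774), Ccdc80 next (0.95), and the other 8 had r between 0.978 and 0.996. Among 8184 other genes with at least 50 CPM in a group, those most like the mean of the 10 were Mfap5 (0.9985), a microfibril glycoprotein gene, Col6a1 (0.998), a chain of collagen VI, Cd248 (0.997), a surface glycoprotein of fibroblasts and pericytes, Col5a2 (0.996), a chain of the fibrillar collagen V, and Tmod2 (0.996), a tropomodulin gene. Mfap5 had group means of 9.11 in fibroblasts, 0.86 in immune cells and 6.05 in keratinocytes of PTX males, and of 9.32 in fibroblasts, 5.88 in immune cells and 0 in keratinocytes of vehicle males. These likenesses rest on 9 means from shared libraries and are a description.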

How the data were processed

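Sorted fibroblasts, immune cells and keratinocytes of mouse hind paw skin were profiled by stranded mRNA sequencing with 50-base single-end reads in 35 libraries. The deposited values are raw counts of reads per gene symbol, which the authors made with bcl2fastq, TopHat2 and HTSeq on mm9, per the submitters' processing notes; for tool versions, gene annotation and the counting's strand setting, nothing is given in the sources used here. Lines without a gene name were left out of totals and tests. Reads in genes were 35.4% to 52.3% of those counted in fibroblast, 38.7% to 46.0% in immune and 19.3% to 27.2% in keratinocyte libraries; reads in no feature were 11.1% to 19.8% in fibroblast, 10.4% to 16.3% in immune and 19.6% to 31.0% in keratinocyte libraries, and most of the rest mapped to several places. The precision of a low level is set by these depths, and counting intervals (95%, exact) and floors of 3 counts cover counting error only.

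From the deposited counts, edgeR 4.0.16 (R 4.3.3) with TMM scaling, filterByExpr and the quasi-likelihood test was fitted over the 3 groups of each population for PTX males against vehicle males and vehicle females against vehicle males. One fit per pair of populations gave the difference in PTX response, and 1 fit over all 35 libraries gave the comparisons of sorts. P-values were adjusted by Benjamini-Hochberg over all genes tested, with a threshold of 0.05, and the SE is the log2 fold change divided by the square root of F. Levels are CPM with TMM scaling within a population, or over all libraries for shares and sums. Exon lengths came from a GRCm38 annotation although reads were counted on mm9. Alternatives were RLE scaling, library totals, no filter, DESeq2 1.42.0, limma 3.58.1 with voom quality weights, a replicate block, only the groups compared, other controls and each library left out. The fits were also run on simulated counts in which randomly drawn genes were changed in PTX males. That simulation did not copy groups without counts or gene sets that move together, so it is no check of such cases. Figures were drawn with matplotlib 3.10.9.

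The 10 genes and the lists beside them were chosen with earlier results of these data known. All 10 are named; of each other list, the text draws on up to 3 genes that passed with the lowest p or, where none passed, up to 2 with the highest mean CPM, and the 5 genes most like the mean of the 10 were taken among those with at least 50 CPM in a group.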

Additional observations from a re-analysis of the deposited data

Results flagged for a closer look

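In 80 groups of 4 libraries, the highest or lowest value of a gene stood far from the other 3 in 3 cases, where chance flags about 1 in 20 groups. Dcn in fibroblasts of vehicle males was 37300 CPM in library 1, beside 23600 to 25400 CPM in the others. Dpt in keratinocytes of vehicle females was 0.782 CPM in library 2, the shallowest library, beside 0.0998 to 0.139 CPM in the others. These are 4 counts over 4 libraries with 0 libraries at 0, so the libraries differ in depth and not in count. Fbn1 in keratinocytes of vehicle females was 89.2 CPM in library 4, beside 0.108 to 0.782 CPM in the others.

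The PTX response differed between populations for 9 of the 10 genes against each of the other sorts, by edgeR's test of the difference itself. In immune minus fibroblast libraries the log2 differences were -3.71 for Dcn, -2.88 for Lum, -6.05 for Dpt, -4.35 for Pdgfra, -4.51 for Apod, -2.36 for Gsn, -3.72 for Scara5, -5.26 for Fbn1 and -6.57 for Fbln1. In keratinocyte minus fibroblast libraries they were 4.11 for Dcn, 9.09 for Lum, 11.83 for Dpt, 10.67 for Pdgfra, 5.13 for Apod, 3.45 for Gsn, 14.75 for Scara5, 11.36 for Fbn1 and 12.67 for Ccdc80. The Scara5 value depends on the prior count, since vehicle male keratinocytes had no counts of it. Both sets of differences use the same fibroblast libraries.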

How the results depend on the processing

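Of the counts of the 10 genes, those of PTX males against vehicle males in fibroblasts (0), of vehicle females against vehicle males in fibroblasts (0), of both differences in response and of all 6 comparisons of sorts stayed within 1.5 times under each alternative run. In the immune sort, 9 genes lower in PTX males became 1 with limma and voom weights, 0 with vehicle males and females together as control and 0 with vehicle females as control (median 0.62), where Dcn (0.59), Lum (0.82), Pdgfra (0.53), Gsn (0.65), Scara5 (1.69), Fbn1 (0.76), Fbln1 (0.90) and Ccdc80 (0.47) changed sign; without single libraries the count was 7 to 10. The 8 genes lower in vehicle females were 3 to 7 without single libraries. In keratinocytes the 7 genes higher in PTX males were 4 with limma and voom weights and 4 to 6 without single libraries, and the 0 of the sex comparison was 1 with DESeq2. The causes were not tested.

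Signs turned for genes that were not called. In fibroblasts of PTX males Dcn was 0.17 with RLE scaling and with DESeq2, 0.15 with both vehicle groups and 0.35 with vehicle females as control, and -0.28 to 0.15 without single libraries. Fbln1 was 0.14 with RLE scaling and with DESeq2, 0.00060 without the filter, 0.028 with library totals, 0.16 with voom weights, 0.25 with both vehicle groups, 0.55 with vehicle females, and -0.19 to 0.36 without single libraries; Pdgfra was 0.081 with vehicle females. In the sex comparison in fibroblasts Fbn1 was -0.075 with RLE scaling and DESeq2 and -0.025 to 0.12 without single libraries, and Scara5 -0.30 to 0.13. In that in keratinocytes Dcn was -0.013 with RLE scaling and DESeq2 and -1.40 to 0.58 without single libraries.

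Over all genes, deviations of same-numbered libraries from their group means correlated little (-0.049 to 0.12). This cannot show whether the numbers pair libraries, since a shared source may affect few genes, and the labels do not say. With a replicate block the immune count was 7 (Pdgfra 0.0952 and Fbln1 0.0622 were lost), the immune sex count 7 (Fbln1 0.166), the keratinocyte count 6 (Scara5 0.0801), the immune difference 10 (Ccdc80 0.00432), the keratinocyte difference 8 (Dcn 0.0559) and fibroblasts over keratinocytes in vehicle females 9 (Fbln1 0.0681); Fbln1 in fibroblasts of PTX males was 0.12 and Dcn in the keratinocyte sex comparison -0.37.

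Without single libraries the all-gene counts, which set the background shares, were 0 to 4 in fibroblasts, 230 to 954 in immune cells and 84 to 121 in keratinocytes of PTX males. They were 1 to 2 in fibroblasts, 12 to 29 in immune cells and 1 to 3 in keratinocytes between sexes. For the immune difference they were 299 to 527 and for the keratinocyte difference 293 to 409. For fibroblasts over immune cells they were 1459 to 1764 in PTX males, 1039 to 1151 in vehicle females and 449 to 591 in vehicle males, and over keratinocytes 357 to 641 in PTX males, 1363 to 1543 in vehicle females and 1300 to 1704 in vehicle males. Shifts of over 1.5 times came from 6 of 8 libraries in fibroblasts of PTX males and from 7 of 8 in each of the fibroblast and immune and 5 of 7 in the keratinocyte sex comparisons. Those in immune cells of PTX males came from vehicle males 2 (230), 3 (232) and 4 (279). Those in keratinocytes came from vehicle male 3 (84) and PTX males 2 (87), 3 (100) and 4 (94). The immune difference was 299 without fibroblast vehicle male 4. Fibroblasts over immune cells in vehicle males were 455, 449 and 467 without fibroblast vehicle males 2, 3 and 4. Fibroblasts over keratinocytes were 357 and 389 without fibroblast PTX males 2 and 4, and 1300 without keratinocyte vehicle male 2.

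Over all genes, edgeR and DESeq2 called 2 and 403 in fibroblasts of PTX males, 669 and 1870 in immune cells, 159 and 1339 in keratinocytes, and in the sex comparisons 2 and 62 in fibroblasts, 43 and 284 in immune cells and 1 and 553 in keratinocytes, and 468 and 1758 for the immune and 433 and 2064 for the keratinocyte difference. With the block the immune counts were 148 in PTX males and 24 between sexes, and those of the differences 220 and 275; immune PTX counts were 407 without the filter, 38 with voom weights and 213 with vehicle females as control, and keratinocyte counts 339 with voom weights and 353 with both vehicle groups. For the levels over immune cells DESeq2 called 4073 beside 2015 in PTX males, 2573 beside 1420 in vehicle females and 2092 beside 701 in vehicle males, and over keratinocytes 2898 beside 702 in PTX males, 3539 beside 1800 in vehicle females and 4367 beside 1997 in vehicle males.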

Other observations

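Other marker lists in the same libraries were read in the same way. Over all genes tested, 4.56% were called lower and 116 of 12131 higher in immune libraries of PTX males. In keratinocyte libraries of PTX males, 1.15% of all genes were called higher. In immune libraries of PTX males 2 of 7 skeletal muscle and 2 of 4 adipocyte genes tested fell against vehicle males, 0 of 7 Schwann cell genes were called by edgeR (1 higher and 1 lower at an unadjusted p under 0.05), and 1 of 12 pan-immune genes, Cd74, rose. Of the 12 pan-immune genes, 7 were higher and 0 lower at an unadjusted p under 0.05. Over all 12131 genes tested, 2435 had such a p in either direction. In keratinocyte libraries of PTX males 1 of 4 skeletal muscle and 1 of 3 adipocyte genes rose, and 0 of 7 Schwann cell genes were called (1 higher unadjusted).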
